A study of Mus musculus with 24 samples.

Results

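The endothelin system is described here through 5 genes: the peptide genes Edn1 and Edn3, the receptor genes Ednra and Ednrb, and Ece1, which encodes the enzyme that cuts the precursor to the active peptide. Endothelins are short peptides that cells release to act on their neighbors. Endothelin-1, the product of Edn1, is made by endothelial cells and is a strong constrictor of vessels, acting through the A receptor (Ednra) on smooth muscle cells and pericytes. The B receptor (Ednrb) binds all endothelins, and in the brain it is best known from astrocytes. The 5 members were picked by name as the parts of one signaling system, out of 32285 genes in the deposited matrices, and all 5 were found. The list was drawn up with earlier results of these data by class of nuclei, region and genotype known, so that the p-values below, although each comes from a fit across all genes tested, are not independent support for the choice, and levels by class are a description without a test.

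The nuclei came from the brains of 12 mice of the strain B6.Pdgfbtm3Cbet. The 6 mutant mice carried the ret allele of Pdgfb on both chromosomes (Pdgfb ret/ret), and the 6 control mice carried it on 1 (Pdgfb ret/wt), so that no mouse was without the allele. The ret allele lacks the motif that keeps PDGF-B close to the endothelial cells that secrete it, in all cells and throughout life, and the mutants are known for pericyte loss and for calcified vessels in the deep brain. The level of Pdgfb RNA is no check of the labels, since the allele is still transcribed. Each mouse gave 1 library from deep brain regions, which are prone to calcification, and 1 from the cortex, which stays free of it. Mice 1 to 4 of both groups were matched in age at 5 months 3 days, 5 months 0 days, 5 months 18 days and 4 months 24 days. Mutants 5 and 6 were 4 months 7 days and 4 months 9 days old, and controls 5 and 6 were 4 months 9 days and 4 months 7 days old. Control mouse 6 was male, and the other 11 mice were female.

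The 24 libraries held 64736053 to 96459036 unique molecular identifiers (UMIs, 1 per captured RNA molecule) in the deep brain and 23625232 to 95605387 in the cortex. After filtering, 124958 nuclei of the deep brain and 79967 of the cortex remained, with a median of 3547 to 7314.5 UMIs per nucleus and library in the deep brain. Over all kept nuclei, the cortical libraries stood apart from each other in depth, with medians of 6494.5 to 8054 UMIs in mice 5 and 6 and of 804 to 4597 in mice 1 to 4, so that cortical values are also given within these sets. Nuclei were put into classes by clusters and marker genes, and 9305 nuclei of the deep brain and 42143 of the cortex stayed unnamed. The unnamed cortical nuclei had a median of 854 UMIs. They were 7718 of 9277 kept nuclei in mutant mouse 1 and 1914 of 3008 in control mouse 1. In mutant mouse 5 they were 615 of 10548, and in control mouse 6 773 of 2328. Named classes were not deeper throughout in mice 5 and 6. Cortical precursor cells held 166130 UMIs in 22 nuclei in control mouse 1 and 1056477 in 259 nuclei in control mouse 5. Endothelial cells counted 684 nuclei in the deep brain and 150 in the cortex, astrocytes 10425 and 1578, and oligodendrocyte precursor cells 3322 and 962. Mural cells (pericytes and smooth muscle cells) counted 192 nuclei in the deep brain, with 16 to 32 per control library and 2 to 10 per mutant library, and 31 in the cortex, of which 23 came from control mouse 5. Levels are CPM: the UMIs of a gene in a class, summed over the nuclei of a library and divided by all UMIs of these nuclei, times 1000000. Gene length was not corrected for, so levels are compared within a gene and not between genes.

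All 5 genes lie on separate chromosomes of the mouse genome (GRCm38, GENCODE vM21). Edn1 (ENSMUSG00000021367) spans chr13:42301476-42307990 on the plus strand and Edn3 (ENSMUSG00000027524) chr2:174760619-174784042 on the plus strand. Ednra (ENSMUSG00000031616) spans chr8:77663031-77724464 and Ednrb (ENSMUSG00000022122) chr14:103814625-103844402, both on the minus strand, and Ece1 (ENSMUSG00000057530) spans chr4:137862237-137965229 on the plus strand. Edn1, Ednra and Ece1 each overlap a counted gene on the opposite strand. Over the nuclei of named classes, Gm47118 held 33 UMIs against 1732 of Edn1, Gm13012 held 46 against 69752 of Ece1, and 4933431K23Rik held 4811 against 3648 of Ednra, so that a wrong strand assignment would weigh most on Ednra.

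Edn1 was the member whose level differed most between the genotypes, and its promoter is shown for that reason. RefSeq held promoter windows for all 5 members, of 250 bases before and 50 after the start. The first line gives the 250 bases before the start of Edn1 (chr13:42301226-42301475, plus strand, build GRCm38.p6), and the second line 26 bases just after it (chr13:42301479-42301504), with matches to searched motifs in capitals.
Edn1 before the start: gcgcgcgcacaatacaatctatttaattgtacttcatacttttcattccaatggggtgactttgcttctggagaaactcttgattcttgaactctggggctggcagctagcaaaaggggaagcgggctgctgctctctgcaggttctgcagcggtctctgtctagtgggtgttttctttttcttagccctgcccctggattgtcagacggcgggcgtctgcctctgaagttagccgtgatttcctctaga
Edn1 after the start: gggtcTTATCTctggctgCACGTtgc
The motifs searched on both strands were AGATAA for factors of the GATA family, ACGTG for the hypoxia response, TGANTCA for AP-1, TATAAA for the box of that name, CCGGAA for ETS factors and GTCTAGAC for SMAD factors. In the whole window of 300 bases, AGATAA matched once, 9 bases from the start, and ACGTG once, 22 bases from the start, both on the minus strand and without overlap of each other. Of all 32851 promoter windows, 11.2% held AGATAA and 19.6% held ACGTG, so that such matches are frequent and say nothing of binding.

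Edn1 had its highest level in endothelial cells. It reached 298 ± 234 CPM (mean ± SD, n = 12 libraries) in endothelial cells of the deep brain and 750 ± 767 CPM (n = 9) in those of the cortex, and the class next in order, mural cells of the deep brain, stood at 16.9 ± 34.9 CPM (n = 11). Over both genotypes, endothelial cells held 569 of the 1132 Edn1 UMIs of the deep brain (50.3%) and 565 of the 1055 of the cortex (53.6%). Neurons held another 25.3% and 14.8%, but spread so thinly that 0.389% of the 64766 deep brain neurons had an Edn1 UMI. Of the endothelial UMIs, 84 in the deep brain and 65 in the cortex came from control mice, and 485 and 500 from mutant mice. In control mice alone, neurons held more Edn1 UMIs than endothelial cells in the deep brain and as many in the cortex. The highest neuronal cluster, led by Foxp2 and Pbx3, held 42 UMIs in 1411 nuclei (4.12 CPM). Unnamed nuclei held 13.7% and 28.4%. In the deep brain, 141 of 684 endothelial nuclei had an Edn1 UMI (20.6%, exact binomial interval 17.6 to 23.8%) at a median depth of 1904 UMIs, against 35 of 30199 oligodendrocytes (0.116%, 0.0807 to 0.161%) at a median depth of 2670 UMIs. That class is taken here as the background, and free RNA itself was not measured. The intervals cover counting error only.

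Edn3, which encodes endothelin-3, the peptide that prefers the B receptor, was shared by the endothelial cells and the fibroblasts. It stood at 85.0 ± 35.4 CPM (n = 12) in deep brain endothelial cells, 53.5 ± 60.8 CPM (n = 9) in cortical ones, 44.5 ± 24.5 CPM (n = 12) in deep brain fibroblasts and 80.0 ± 49.5 CPM (n = 10) in cortical fibroblasts. The ranges over libraries overlapped between these 4 levels. Endothelial cells held 29.1% of the Edn3 UMIs of the deep brain and 15.3% of those of the cortex, fibroblasts held 25.9% and 26.7%, neurons 15.5% and 15.9%, and unnamed nuclei 18.3% and 36.0%, the largest share in the cortex. The cortical mural library had 107 CPM from 4 UMIs, and no other class had a mean over 7.68 CPM, and oligodendrocytes of the deep brain had an Edn3 UMI in 0.0894% of nuclei, against 13.7% of endothelial nuclei.

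**Figure D1:**
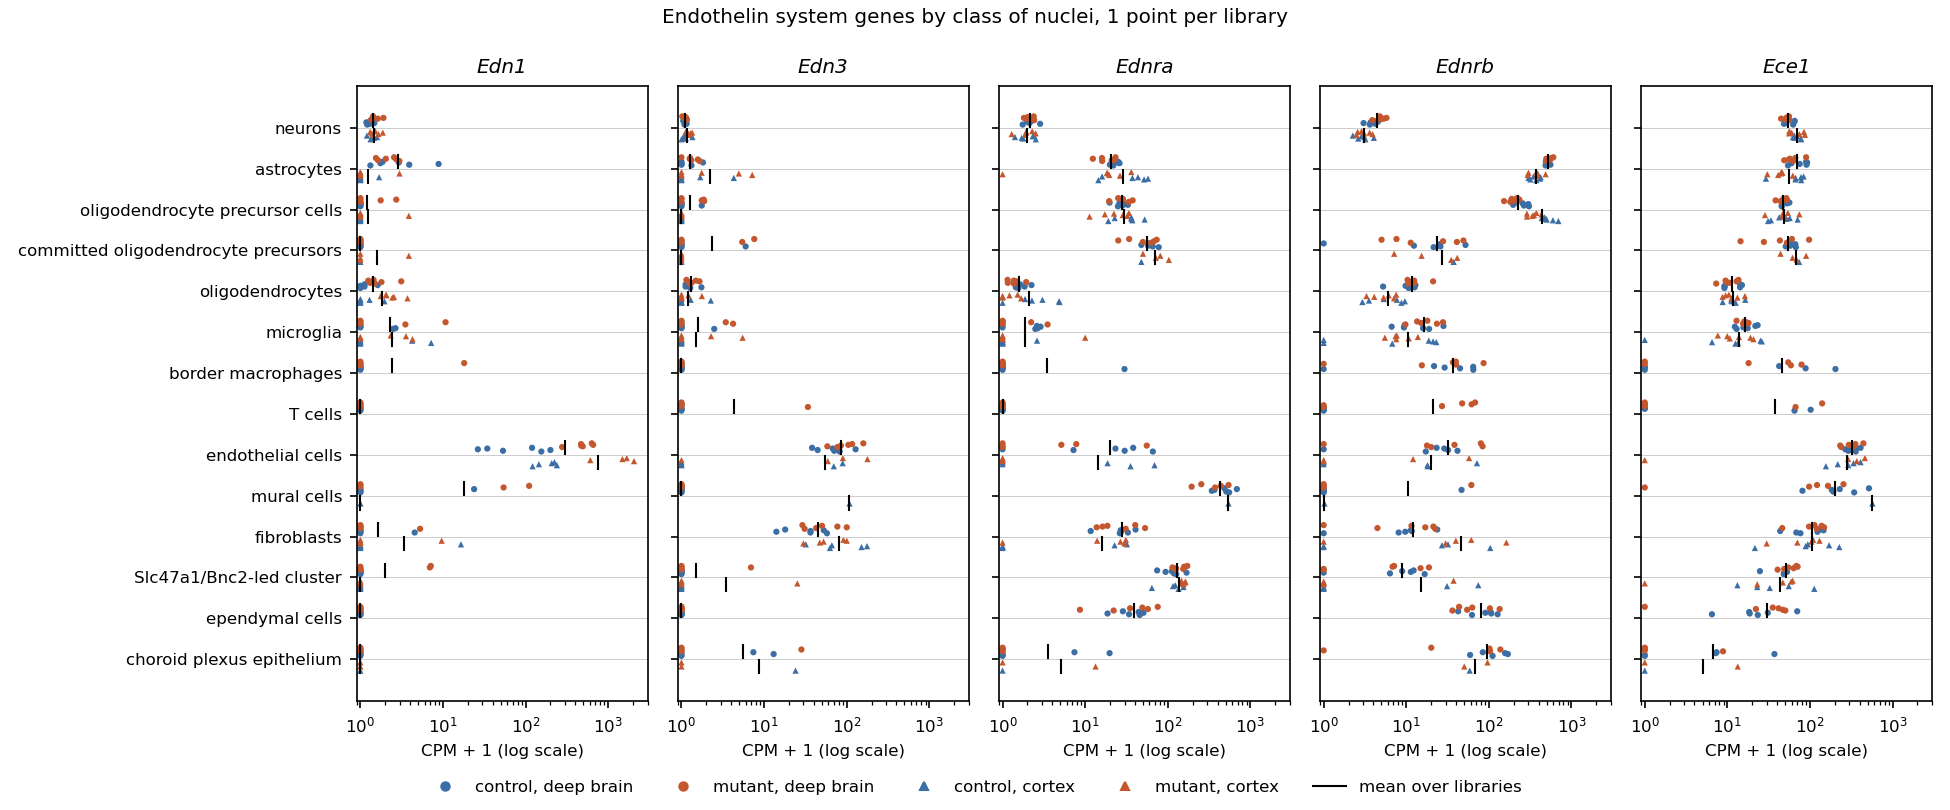
Levels of the 5 genes (CPM + 1, log scale) in each class of nuclei, with 1 point per library, circles for the deep brain, triangles for the cortex, blue for control, orange for mutant, with a black bar at the mean over libraries. Edn1 peaks in endothelial cells (298 CPM in the deep brain), Ednra in mural cells (431 CPM), Ednrb in astrocytes (525 CPM) and oligodendrocyte precursor cells (226 CPM), and Ece1 in endothelial cells (324 CPM) and, in the 1 cortical library with enough nuclei, mural cells (560 CPM).

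By their highest levels, the receptors were split between the vessel wall and the glia. Ednra was highest in mural cells, at 431 ± 143 CPM (n = 11) in the deep brain and at 534 CPM in the 1 cortical library with at least 5 mural nuclei, and 42.2% of the 192 deep brain mural nuclei had an Ednra UMI against 0.152% of oligodendrocytes. A cluster led by Slc47a1 and Bnc2, which was given no cell type name, came next at 128 ± 29.8 CPM (n = 12) in the deep brain and at 136 CPM in the cortex (63.2 to 163 CPM over 10 libraries). Committed oligodendrocyte precursors followed at 55.7 ± 15.4 CPM (n = 12) and 69.8 ± 22.9 CPM (n = 5), then ependymal cells of the deep brain at 38.2 ± 18.5 CPM (n = 12). Lower and close to each other were oligodendrocyte precursor cells at 26.9 ± 5.35 and 28.1 ± 11.2 CPM, fibroblasts at 27.2 ± 12.4 and 15.0 ± 13.9 CPM, and astrocytes at 19.8 ± 4.08 and 27.4 ± 16.9 CPM in the deep brain and the cortex. By number of UMIs the order was another one. Neurons held 25.6% of the Ednra UMIs of the deep brain and 31.1% of those of the cortex, astrocytes 22.7% and 17.2%, unnamed nuclei 14.5% and 18.2%, and mural cells 4.50% and 2.47%.

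Ednrb was highest in glia. In the deep brain it stood at 525 ± 37.3 CPM in astrocytes and 226 ± 47.4 CPM in oligodendrocyte precursor cells, and in the cortex at 367 ± 58.3 and 438 ± 122 CPM (n = 12 each). Over both genotypes, these classes differed in the cortex by less than their spread over libraries. By genotype, the cortical means were 362 CPM in astrocytes and 530 CPM in precursor cells of control mice, and 371 and 345 CPM in mutant mice. By these means, the order of the classes was turned around between the regions in control mice only. Choroid plexus epithelium at 93.5 ± 55.3 CPM (n = 10) and ependymal cells at 79.9 ± 34.6 CPM (n = 12) came next in the deep brain. Endothelial cells had 31.1 ± 26.5 CPM and committed oligodendrocyte precursors, the stage after the precursor cells, 22.4 ± 17.0 CPM. Astrocytes held 59.4% of the Ednrb UMIs of the deep brain, and 73.3% of them had at least 1 Ednrb UMI at a median depth of 3248 UMIs, against 2.86% of oligodendrocytes.

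Ece1, the converting enzyme, was the most widely spread member. Its level was 324 ± 64.4 CPM (n = 12) in deep brain endothelial cells and 280 ± 141 CPM (n = 9) in cortical ones, 198 ± 140 CPM (n = 11) in deep brain mural cells, and 103 ± 37.5 (n = 12) and 104 ± 61.3 CPM (n = 10) in fibroblasts. The endothelial and mural levels overlapped between libraries. Neurons had 53.6 ± 6.54 CPM in the deep brain and 68.6 ± 10.6 CPM in the cortex (n = 12 each), but as the most numerous named class they held 79.7% of the Ece1 UMIs of the deep brain and 82.7% of those of the cortex. Among neuronal clusters with the granule neuron markers Gabra6 and Fat2 among their leading genes, those of the deep brain had 128, 126 and 45.0 CPM (2641, 1713 and 212 nuclei) and that of the cortex 110 CPM (114 nuclei).

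Edn1 was higher in endothelial cells of the mutant than of the control mice, in both regions and with no overlap of libraries, as was the case for 1.29% of the genes tested in the deep brain and 6.53% of those in the cortex. In the deep brain, the control libraries had a lowest level of 25.4, a median of 85.6 and a highest of 199 CPM, and the mutant libraries a lowest of 276, a median of 481 and a highest of 655 CPM. The means were 97.2 ± 71.1 and 499 ± 137 CPM (n = 6 each), and Edn1 rose by a log2 fold change of 2.32 (SE 0.32, adjusted p = 0.00024, edgeR's quasi-likelihood test with Benjamini-Hochberg adjustment). In that fit, 57 of 3632 genes were called (1.57%) at an adjusted p under 0.05, and Edn1 was the only one of the 3 members tested in it that was called. Leaving out 1 library at a time gave log2 fold changes of 2.11 to 2.69 and adjusted p-values of 7.1e-06 to 0.0014.

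The difference lay in the share of nuclei with the transcript and in the UMIs per such nucleus. In the deep brain, 37 of 351 control endothelial nuclei (10.5%, 5.88 to 16.4% over libraries) and 104 of 333 mutant nuclei (31.2%, 21.7 to 39.1%) had an Edn1 UMI, at median depths of 1798 and 2047 UMIs. Nuclei with at least 1000 UMIs were also thinned to 1000 UMIs, and the shallower ones were left out. Among these nuclei, the median share over libraries was 4.28% in control (0 to 12.5%) and 26.3% in mutant mice (7.69 to 33.3%), and these ranges overlapped. The mean count per positive nucleus was 2.27 UMIs in control and 4.66 in mutant mice. Nuclei with at least 10 Edn1 UMIs numbered 1 in control and 17 in mutant mice, and those 17 held 270 of the 485 Edn1 UMIs of the mutant endothelium.

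In the cortex, the 5 control libraries with at least 5 endothelial nuclei stood at 120, 239, 144, 206 and 223 CPM (mice 1, 3, 4, 5 and 6) and the 4 mutant libraries at 2052, 607, 1486 and 1674 CPM (mice 1, 4, 5 and 6). Every mutant library lay above every control library. The means were 186 ± 51.5 and 1455 ± 612 CPM, and Edn1 rose by a log2 fold change of 2.86 (SE 0.42, adjusted p = 0.0034, edgeR's quasi-likelihood test with Benjamini-Hochberg adjustment) in a fit that called 19 of 1226 genes (1.55%). Within mice 5 and 6, whose libraries were deeper per nucleus over all nuclei together but not in the endothelial class (medians of 2047 to 3562.5 against 2130 to 4322 UMIs in the libraries of mice 1 to 4 in the fit), the mean was 215 CPM in the 2 control and 1580 CPM in the 2 mutant libraries, and within mice 1 to 4 it was 168 CPM in 3 control and 1329 CPM in 2 mutant libraries. Over all 6 control and 6 mutant libraries, those with 4 nuclei included, an Edn1 UMI was found in 20 of 77 control nuclei (25.97%) and in 54 of 73 mutant nuclei (74.0%). Leaving out 1 library at a time gave log2 fold changes of 2.72 to 3.09 and adjusted p-values of 0.00033 to 0.025. The libraries in the fit hold 5 to 41 endothelial nuclei each, which limits the precision of single values.

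**Figure D2:**
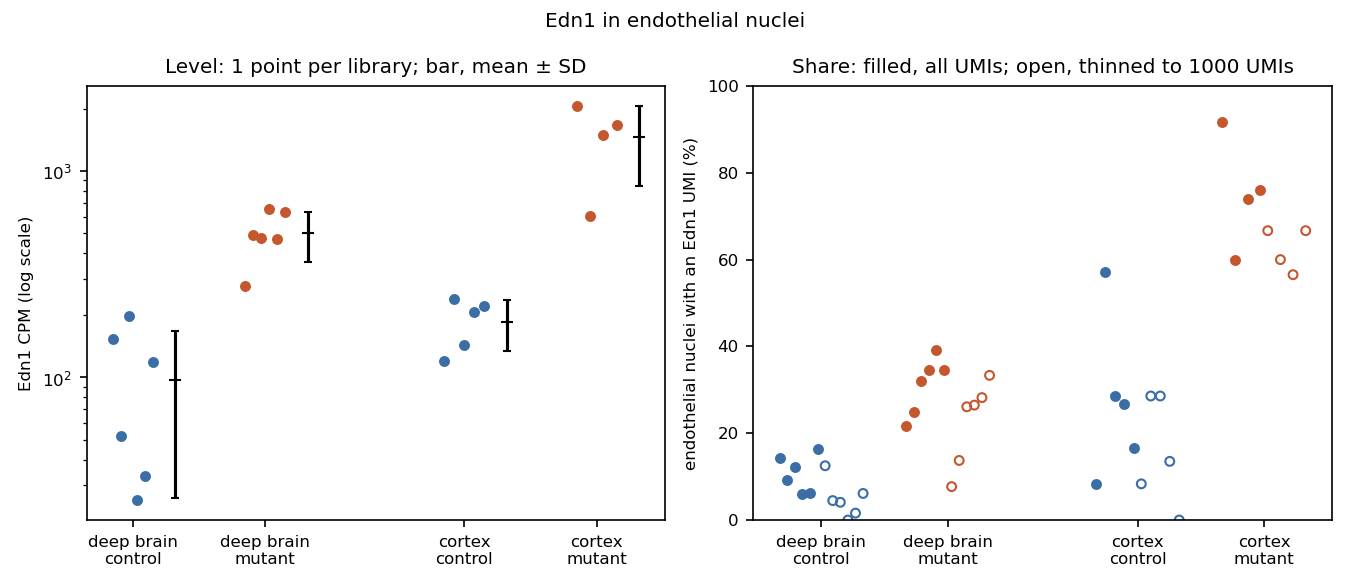
Left, Edn1 level (CPM, log scale) in endothelial nuclei with 1 point per library and the mean ± SD beside it. Right, the share of endothelial nuclei with an Edn1 UMI, with filled points for all nuclei and UMIs. Open points are for nuclei with at least 1000 UMIs only, after thinning to 1000 UMIs per nucleus. Control libraries (blue) lie between 25.4 and 199 CPM in the deep brain and mutant libraries (orange) between 276 and 655 CPM, and the cortical groups are also apart.

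Edn1 in the endothelium was not called between the regions. In control mice the log2 fold change of deep brain over cortex was −0.97 (SE 0.43, adjusted p = 1.0, edgeR's quasi-likelihood test with Benjamini-Hochberg adjustment), in a fit in which 0 of 2387 genes were called (0.0%), 100 genes had an unadjusted p under 0.05 and DESeq2 called 0. In 7 of the 9 mice with both values the deep brain level was the lower one, with ratios of deep brain to cortex from 0.135 to 1.28. The difference of the genotype effect between the regions was −0.57 (SE 0.65, adjusted p = 0.98, same test), with 1 of 3241 genes called (0.0309%). In nuclei without a mural marker UMI, a choice made after seeing the data, it had the other sign, at 2.48 (SE 1.17, adjusted p = 0.92, same test), so that no direction is given for it. On simulated counts the main fit of this effect difference, over all endothelial nuclei, recovered 33% of 4-fold differences. Its missing call therefore says little about the presence of a difference. The main fit between the regions recovered 18% of 2-fold and 76% of 4-fold differences.

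Other markers moved in the endothelial nuclei along with the genotype, and they are given here because they touch the Edn1 result. The 10 endothelial markers summed to a median of 18184 CPM in control and 19393 CPM in mutant libraries of the deep brain (ranges 15591 to 21673 and 16276 to 20046), and none of them was at 0. Pericyte markers within the same nuclei summed to 1094, 2601 and 4063 CPM (lowest, median, highest) in control and 95.6, 423 and 1391 CPM in mutant libraries. Rgs5, a pericyte regulator of G-protein signaling that is also on the relay list of the receptors, fell by 2.20 on the log2 scale (adjusted p = 0.0045), as did Atp13a5, a pericyte transporter, by 2.47 (adjusted p = 0.0097, both by edgeR's quasi-likelihood test with Benjamini-Hochberg adjustment). In a fit of endothelial nuclei without any mural marker UMI, chosen after seeing these values, the log2 fold change of Edn1 was 3.51 (SE 0.44, adjusted p = 1.5e-05, same test). In nuclei without such a UMI the pooled Edn1 level was 48.6 CPM in control and 638 CPM in mutant mice (6.07 and 31.6% of nuclei with Edn1), and in nuclei with one it was 134 and 307 CPM (17.5 and 30.3%). Nuclei with a mural marker UMI were also deeper, at medians of 2551 and 2789 UMIs against 1548 and 1826.5, and the part of depth was not tested. The mural nuclei of the deep brain themselves had 4 Edn1 UMIs in all. In the cortical endothelial nuclei the pericyte markers summed to 0, 2912 and 4600 CPM (lowest, median, highest) in control and 0, 30.4 and 364 CPM in mutant libraries, and without nuclei with a mural marker UMI the log2 fold change of Edn1 was 2.66 (SE 0.55, adjusted p = 0.039, same test) over the 7 libraries left.

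The summed levels of arterial and venous markers were also higher in the mutant endothelium by their medians. The 5 arterial markers summed to 239, 327 and 858 CPM (lowest, median, highest) in control and 462, 911 and 1085 CPM in mutant libraries of the deep brain, and the 4 venous markers to 430, 472 and 1069 CPM and to 1005, 1148 and 1627 CPM. In the cortex the arterial sums were 74.3, 301 and 792 CPM in control and 217, 778 and 1153 CPM in mutant libraries, and the venous sums 72.0, 466 and 637 CPM and 867, 1453 and 2394 CPM, the latter without overlap. Of these 9 markers, 7 were tested in the deep brain, where Vwf, the clotting factor of larger vessels and veins, rose by 1.23 on the log2 scale (adjusted p = 0.016), whereas the other 6, with log2 fold changes of 0.21 (Nr2f2) to 1.07 (Bmx), were not called by edgeR's quasi-likelihood test with Benjamini-Hochberg adjustment. In the cortex 3 were tested and none was called, with log2 fold changes of 2.16 for Bmx (adjusted p = 0.066), 2.06 for Vwf (adjusted p = 0.080) and 1.45 for Slc38a5 (adjusted p = 0.13, same test). Between deep brain endothelial nuclei with and without an Edn1 UMI, the ratios of the arterial markers went both ways, with 2.84 for Gkn3 (higher in 9 of 12 libraries), 2.43 for Bmx (7 of 12), 1.19 for Sema3g (5 of 12), 0.904 for Vegfc (4 of 12) and 0.677 for Efnb2 (3 of 12). The ratios of the venous markers were 2.08 for Vwf (7 of 12), 1.97 for Slc38a5 (7 of 12), 1.58 for Nr2f2 (9 of 12) and 1.58 for Lcn2 (3 of 12, from 13 UMIs with and 15 without), and those of the 10 general endothelial markers ranged from 0.895 (Mecom) to 1.93 (Cldn5, higher in 11 of 12 libraries). These ratios pool the nuclei of both genotypes, whereas the counts of libraries compare nuclei within a library. Of the 141 nuclei with an Edn1 UMI, 104 were mutant, and the part of the genotype in the ratios was not tested. The ratios describe the nuclei and were not tested. Among nuclei with no arterial or venous marker UMI, 7 of 141 control nuclei (4.96%) and 9 of 75 mutant nuclei (12.0%) had an Edn1 UMI, at 38.1 and 256 CPM. These nuclei were also shallower, at medians of 1261 and 1229 UMIs, and held too few UMIs for a test of Edn1, since 367 genes passed the filter and Edn1 was not among them. In the cortex, 4 of 28 control nuclei and 3 of 6 mutant nuclei without such a marker UMI had an Edn1 UMI, at 105 and 1017 CPM from 6 and 10 UMIs. The part that a larger share of arterial or venous nuclei has in the Edn1 difference was not tested.

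Edn3 in the same endothelial nuclei had a lowest, median and highest level of 37.1, 68.3 and 127 CPM in control and 57.4, 93.9 and 158 CPM in mutant libraries of the deep brain. The groups overlapped, and the log2 fold change of 0.49 (SE 0.29, adjusted p = 0.60, edgeR's quasi-likelihood test with Benjamini-Hochberg adjustment) was not called. An Edn3 UMI was found in 27.0% of control nuclei with Edn1 and 8.60% of those without, and in 31.7% and 10.5% of mutant nuclei, at median depths of 2927 and 1687 UMIs in control and 2689 and 1756 UMIs in mutant mice. The positive nuclei were also the deeper ones, and the part of depth was not tested. Between nuclei with and without an Edn3 UMI, again pooled over both genotypes, the ratios were below 1 for 4 of the 5 arterial markers (0.583 for Bmx to 0.717 for Sema3g) and above 1 for Gkn3. For the venous markers they ranged from 0.736 (Lcn2) to 1.91 (Slc38a5). In fibroblasts the means of Edn3 were 34.9 ± 17.7 CPM in control and 54.1 ± 28.1 CPM in mutant deep brain (n = 6 each, two-sided exact permutation test, p = 0.20, adjusted p = 0.71 over 31 such tests).

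Ednrb in astrocytes did not differ detectably between the genotypes. In the deep brain, control libraries ranged from 484 to 555 CPM around a median of 503 and mutant libraries from 494 to 602 CPM around a median of 539. The log2 fold change was 0.068 (SE 0.077, adjusted p = 0.72, edgeR's quasi-likelihood test with Benjamini-Hochberg adjustment), in a fit that called 640 of 12773 genes (5.01%). In the cortex the log2 fold change was 0.0041 (SE 0.14, adjusted p = 1.0) with 158 of 6732 genes called (2.35%). The difference of the genotype effect between the regions was 0.073 (SE 0.14, adjusted p = 0.98, same test), with 1 of 12307 genes called (0.00813%).

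Between the regions, however, Ednrb in astrocytes was higher in the deep brain of all 12 mice, with ratios of deep brain to cortex from 1.14 to 1.89. In control mice the level was 511 ± 27.5 CPM in the deep brain and 362 ± 50.3 CPM in the cortex, a log2 fold change of 0.46 (SE 0.093, adjusted p = 0.00066, edgeR's quasi-likelihood test with Benjamini-Hochberg adjustment, mouse as a block), in a fit in which 1568 of 11771 genes were called (13.3%). The cortical control means were 384 CPM in mice 5 and 6 and 351 CPM in mice 1 to 4, both below every deep brain library. Deep brain astrocytes fell into a large cluster led by Slc6a11, a GABA transporter of astrocytes, with 582 ± 47.4 CPM of Ednrb in control and 568 ± 48.2 CPM in mutant mice, and a smaller one led by Slco1c1, the thyroid hormone transporter, with 371 ± 39.4 and 441 ± 62.4 CPM. The latter lay at the level of the cortical cluster, which had 362 ± 50.3 and 371 ± 70.1 CPM. With only the Slco1c1-led cluster on the side of the deep brain, a choice made after seeing these levels that only restates them, the log2 fold change was 0.0092 (adjusted p = 0.99, same test). A cluster of 80 nuclei led by Gdf10 and A2m had 652 CPM.

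**Figure D3:**
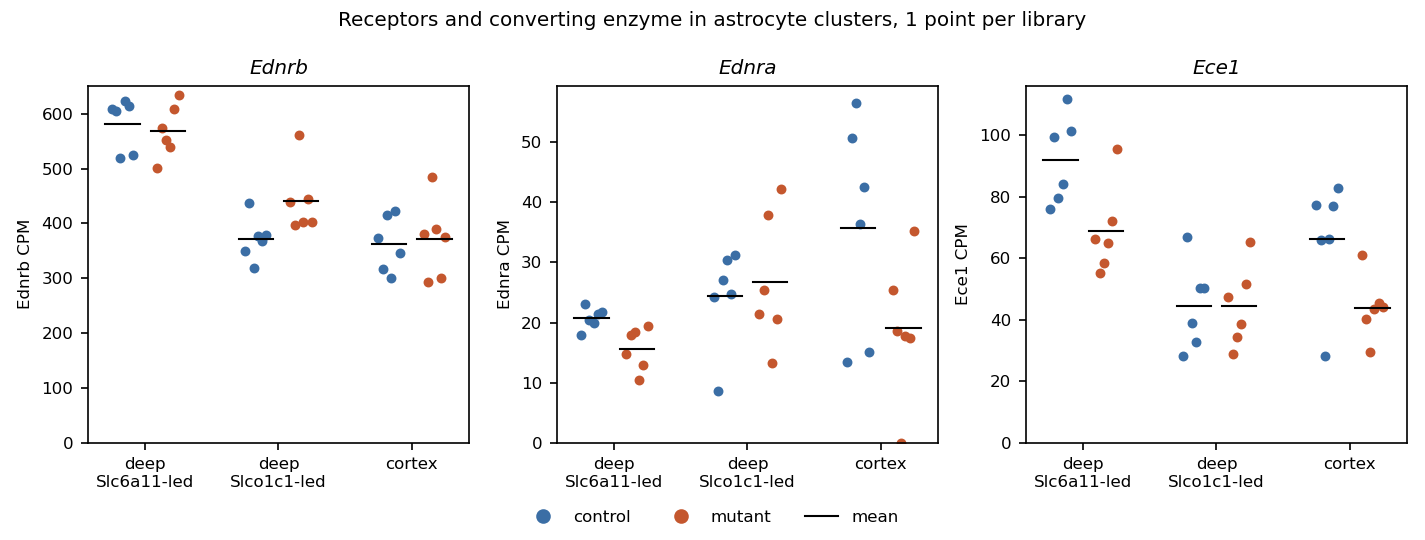
Levels (CPM) of Ednrb, Ednra and Ece1 in the Slc6a11-led and the Slco1c1-led astrocyte clusters of the deep brain and in the cortical astrocyte cluster, with 1 point per library, blue for control, orange for mutant, and a bar at the mean. Ednrb is higher in the Slc6a11-led cluster (582 CPM in control) than in the Slco1c1-led (371 CPM) and the cortical one (362 CPM), and Ece1 follows the same order of the deep brain clusters (92.0 and 44.5 CPM in control).

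In oligodendrocyte precursor cells Ednrb went the other way between the regions. It was lower in the deep brain of all 12 mice, with ratios of deep brain to cortex from 0.391 to 0.652. Control libraries of the deep brain had a lowest, median and highest level of 196, 260 and 305 CPM, and those of the cortex of 435, 495 and 692 CPM. The log2 fold change was −1.03 (SE 0.098, adjusted p = 1.4e-13, edgeR's quasi-likelihood test with Benjamini-Hochberg adjustment, mouse as a block), with 489 of 10417 genes called (4.69%), and an Ednrb UMI was found in 55.5% of deep brain and 77.7% of cortical precursor nuclei at medians of 4654 and 4891.5 UMIs. The fits of this class in the cortex and between the regions were added after the levels had been seen.

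Mutant precursor cells had less Ednrb than control ones in both regions by their means, but the difference passed the threshold only under some settings. In the cortex the mutant libraries had a lowest, median and highest level of 288, 343 and 432 CPM, all below the control libraries (0.245% of the genes tested did not overlap between the groups), and the means were 345 ± 54.8 and 530 ± 95.5 CPM (n = 6 each). The log2 fold change was −0.59 (SE 0.13, adjusted p = 0.22, edgeR's quasi-likelihood test with Benjamini-Hochberg adjustment), in a fit in which 0 of 5311 genes were called (0.0%), 309 genes had an unadjusted p under 0.05 and DESeq2 called 1 gene. With a block by matched age the adjusted p was 0.035, without a filter on low counts it was 0.019, and leaving out mutant mouse 4 gave 0.0498. Within mice 5 and 6 the means were 453 CPM in control and 331 CPM in mutant libraries, and within mice 1 to 4 they were 569 and 352 CPM. In the deep brain the means were 256 ± 44.0 and 196 ± 28.9 CPM, the libraries overlapped, and the log2 fold change was −0.38 (SE 0.11, adjusted p = 0.32, same test, and 0.0044 without a filter on low counts), with 6 of 10711 genes called (0.056%). The effects of the regions differed by 0.21 (SE 0.14, adjusted p = 0.98) in a fit that called 0 of 11072 genes (0.0%), with 567 genes at an unadjusted p under 0.05 and 0 called by DESeq2. Markers of astrocytes, the class with the highest Ednrb level, summed to 995, 1053 and 1088 CPM (lowest, median, highest) in control and 969, 1108 and 1149 CPM in mutant precursor cells of the deep brain, and to 925, 1064 and 1306 CPM and 894, 1031 and 1087 CPM in those of the cortex, so that these ranges overlapped.

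**Figure D4:**
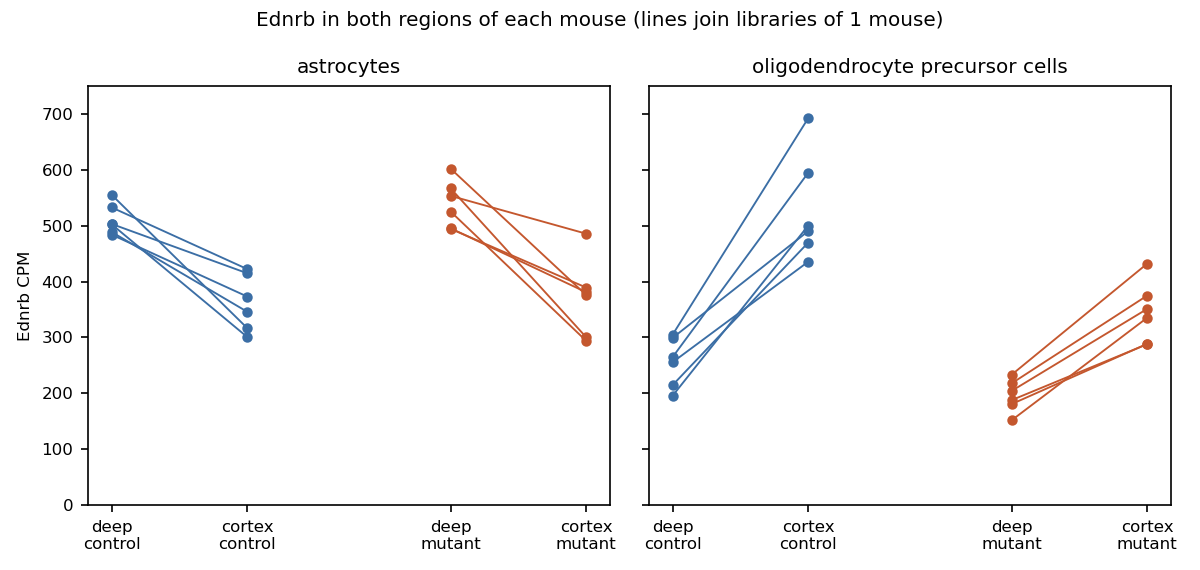
Ednrb level (CPM) in astrocytes and in oligodendrocyte precursor cells, with a line for each mouse from its deep brain to its cortical library, blue for control and orange for mutant. In astrocytes every line goes down towards the cortex (ratios of deep brain to cortex 1.14 to 1.89), and in precursor cells every line goes up (0.391 to 0.652).

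Ednra, the receptor of the contractile cells, was measured in few mural nuclei. Control libraries of the deep brain had a lowest, median and highest level of 340, 497 and 685 CPM. The 5 mutant libraries with at least 5 mural nuclei had 193, 372 and 543 CPM as lowest, median and highest, and mutant mouse 6 was left out for its 2 nuclei. The groups overlapped, and the log2 fold change of −0.30 (SE 0.34, adjusted p = 0.69, edgeR's quasi-likelihood test with Benjamini-Hochberg adjustment) was not called, in a fit in which 11 of 245 genes were called (4.49%). The level is per UMI of the mural nuclei that remained, whereas their number was lower in every mutant library (2 to 10 against 16 to 32), and this level does not include that loss. In astrocytes Ednra was lower in the deep brain than in the cortex in 4 of 6 control mice and higher in the other 2 (ratios of 0.370 to 1.60), with a log2 fold change of −0.76 (SE 0.23, adjusted p = 0.022, same test), yet DESeq2 gave −0.69 with an adjusted p of 0.12, the Slco1c1-led cluster alone gave −0.58 with an adjusted p of 0.38, and leaving out control mouse 2, 3 or 5 ended the call. Mutant against control, the log2 fold change of Ednra in astrocytes was −0.36 in the deep brain (SE 0.16, adjusted p = 0.24) and −0.73 in the cortex (SE 0.34, adjusted p = 0.37), both without a call.

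Ece1 showed no call between the genotypes in any of the classes whose fit tested it. In deep brain endothelial cells, where Edn1 rose, the control libraries had a lowest, median and highest level of 267, 337 and 408 CPM and the mutant libraries of 231, 316 and 442 CPM. The groups overlapped almost fully, and the log2 fold change was −0.11 (SE 0.18, adjusted p = 0.91, edgeR's quasi-likelihood test with Benjamini-Hochberg adjustment). In cortical astrocytes the log2 fold change was −0.60 (SE 0.20, adjusted p = 0.16, same test), and the adjusted p was 0.042 with a block by matched age and 0.031 without control mouse 3. In deep brain mural cells the means were 257 ± 153 CPM in control and 127 ± 92.8 CPM in mutant libraries (n = 6 and 5, two-sided exact permutation test, p = 0.13, adjusted p = 0.71). In neurons, which hold most Ece1 UMIs, the log2 fold change was −0.13 (SE 0.088, adjusted p = 0.59) in the deep brain, where 72 of 19831 genes were called (0.363%), and 0.061 (SE 0.13, adjusted p = 0.93) in the cortex, where 1 of 16511 was called (0.00606%).

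**Figure D5:**
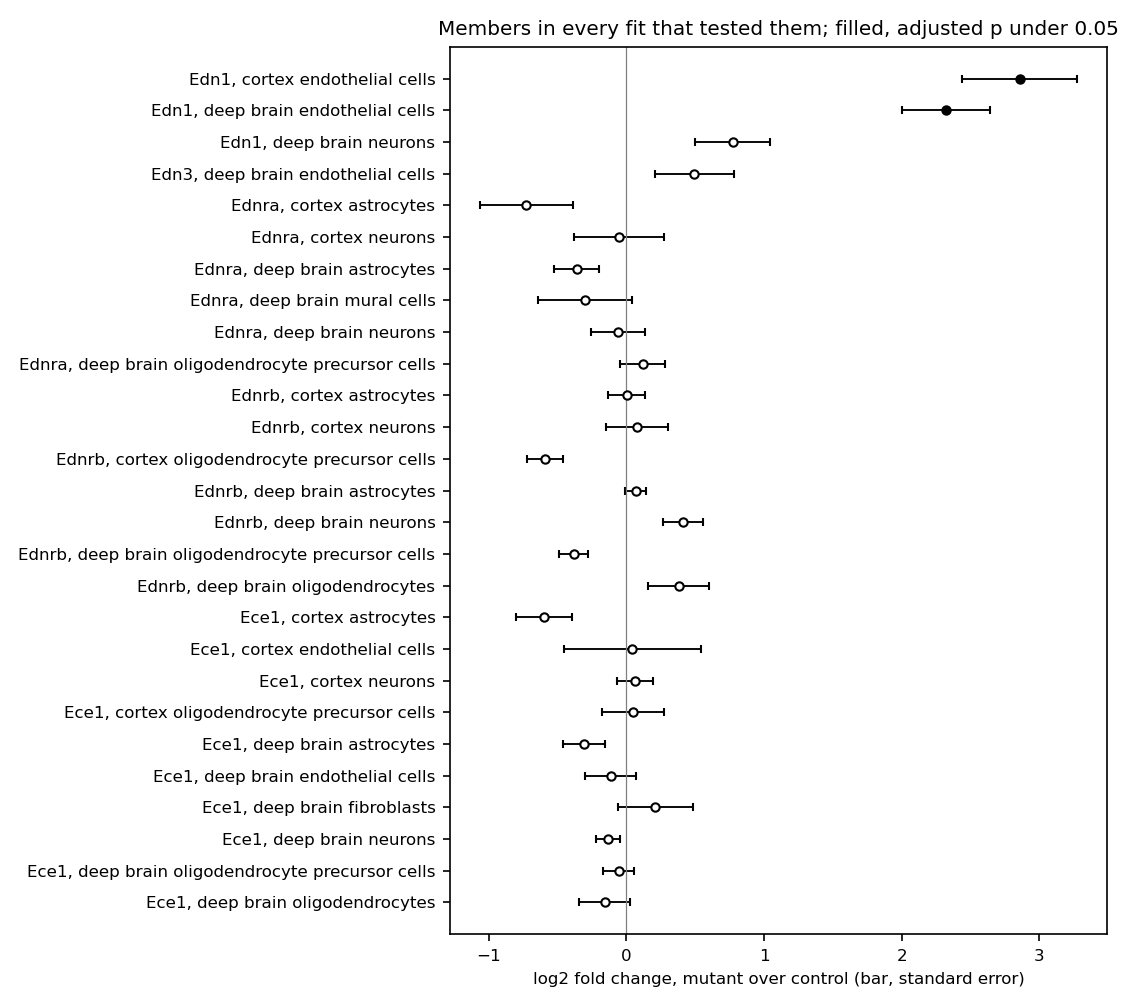
Log2 fold change of mutant over control (point) with its standard error (bar) for each member in each class and region whose fit tested it, with filled points at an adjusted p under 0.05. The filled points are Edn1 in deep brain (2.32) and cortical (2.86) endothelial cells, and all other points are open.

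No member was called between the genotypes in deep brain fibroblasts, microglia, neurons or oligodendrocytes. In deep brain fibroblasts, where 6 of 5121 genes were called (0.117%), Ece1 was the only member tested, with a log2 fold change of 0.21 (SE 0.27, adjusted p = 0.92, edgeR's quasi-likelihood test with Benjamini-Hochberg adjustment), and in deep brain microglia, where 17 of 8852 genes were called (0.192%), no member passed the filter on low counts. In deep brain neurons the log2 fold change of Edn1 was 0.77 (SE 0.27, adjusted p = 0.25) and that of Ednrb 0.41 (SE 0.15, adjusted p = 0.25, both by edgeR's quasi-likelihood test with Benjamini-Hochberg adjustment). Deep brain oligodendrocytes, which held 37 Edn1 UMIs, had 0.145 ± 0.241 CPM of Edn1 in control and 0.739 ± 0.706 CPM in mutant mice (n = 6 each, two-sided exact permutation test, p = 0.028, adjusted p = 0.71). By these means, each under 1 CPM, the class taken as background was itself higher in the mutants. The libraries overlapped, with control mouse 5 at 0.620 CPM and mutant mouse 5 at 0.247 CPM. Mutant mouse 4 alone gave 13 of the 37 UMIs (2.13 CPM). Over all 110 pairs of a member and a class with at least 3 libraries per genotype, of which 100 had a UMI, control and mutant libraries did not overlap in 3, against 0.585% of all pairs of a gene and such a class with a UMI. These 3 were Edn1 in the endothelial cells of both regions and Ednrb in cortical precursor cells.

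Few other genes of the pathway passed the test, and counts of 0 or 1 call in lists of this size are no result about a list. Of the 8 genes listed for peptide processing and clearance, 5 were tested in deep brain astrocytes, where 5.01% of all genes were called, and Ece2, a second converting enzyme, was the 1 called and rose by 0.68 on the log2 scale (adjusted p = 0.019, edgeR's quasi-likelihood test with Benjamini-Hochberg adjustment). That list also holds Edn2, a further peptide gene, whose highest mean in a class was 0.485 CPM. None of these 8 genes passed the filter in deep brain endothelial cells. Of the 27 genes that relay the signal of the receptors, 18 were tested in deep brain endothelial cells (1.57% of all genes called), where Rgs5 alone was called, as given above, and the median log2 fold change was 0.0016 against −0.010 over all genes, and 5 in mural cells (4.49% of all genes called), where none was called. Of the 15 genes of vessel tone and contraction, 8 were tested in mural cells, none was called and the median was 0.15 against −0.031 over all genes. In deep brain astrocytes 6 of those 15 genes were tested and 1 was called. This was Adra1a, an adrenergic receptor that, like the endothelin receptors, couples to phospholipase C, and Adra1a fell by 1.16 on the log2 scale (adjusted p = 0.0024). In deep brain oligodendrocytes Plcb4, a phospholipase and the 1 called of 24 relay genes tested, fell by 0.47 (adjusted p = 0.021, both by the same test) in a fit that called 234 of 13526 genes (1.73%). Between the regions, 5 of 23 relay genes tested in control astrocytes were higher in the deep brain (Plcb1 by 0.73, Plcb4 by 0.62, Gna12 by 0.56, Prkca by 0.45 and Gna13 by 0.35 on the log2 scale) and none was lower, where 13.3% of all genes tested were called in either direction, with a median of 0.17 against 0.0056 over all genes. In precursor cells Prkca was the only one of 22 relay genes called between the regions, a share near the 4.69% of all genes, and was higher in the deep brain by 0.33 (adjusted p = 0.035, edgeR's quasi-likelihood test with Benjamini-Hochberg adjustment).

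The genes whose levels were most like those of each member over 25 combinations of class and region were taken from 16446 genes. For Edn1 they were Sema3g (Pearson's r = 0.97), Sox17 (0.97) and AU021092 (0.97), with their highest mean level in endothelial cells as well. For Edn3 they were Slc22a8 (0.82), Flvcr2 (0.80) and Gpr182 (0.80), highest in cortical fibroblasts or endothelial cells. Ntn1 (0.86), Mthfd2l (0.83) and Prrx1 (0.82) came closest to Ednra, Sox21 (0.85), Gpr37l1 (0.85) and Fgfrl1 (0.84) to Ednrb, and Col4a1 (0.84), Pth1r (0.82) and Lrrc32 (0.82) to Ece1. These values describe levels by class in the same libraries, are dominated by the few classes with high levels, and carry no test.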

How the data were processed

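Nuclei were captured with 10x 5' chemistry and the authors aligned the reads to mm10 with Cell Ranger 5.0.1, introns included, after demultiplexing with bcl2fastq 2.20.0.422. The deposited values are UMI counts per gene and nucleus, with no normalization. The members and all gene and marker lists were chosen with earlier results of these data known.

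Nuclei with more than 500 and fewer than 7000 genes and under 20% mitochondrial UMIs were kept, as in the study. Counts were scaled to 1000 per nucleus, and 2000 variable genes, without the members and pathway lists, gave 20 principal components and clusters in Seurat 5.3.0 at resolution 0.01 and then 0.1 within each region. The cortical endothelial class came from resolution 0.3, since no cluster qualified at 0.1. A cluster was named from its markers, and granule neurons of the cerebellum were kept among neurons. Doublets, called with scanpy 1.11.5, stayed in the data (4.34 to 8.05% of deep brain nuclei per library). In 8 cortical libraries the caller marked 0.016 to 0.106% or 28.8 to 46.7% of nuclei and had not worked, so doublets were removed as an alternative for the deep brain only. Pairs of libraries shared 0.28 to 1.99% of barcodes.

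Counts were summed per class and library with at least 5 nuclei. Every main fit with both genotypes had at least 4 libraries of each in it, and alternatives that left out libraries or nuclei could have fewer. The fits of deep brain against cortex held control libraries only. The main test was edgeR's quasi-likelihood test (edgeR 4.0.16, TMM scaling, low counts filtered by filterByExpr) with Benjamini-Hochberg adjustment over all genes tested and a threshold of 0.05. The study's rank test over nuclei was not used, since nuclei are not replicates. Members that a fit filtered out were compared over libraries with an exact permutation test (two-sided). Both regions of a mouse were blocked by mouse. Same-numbered mice 1 to 4 had the same age, mice 5 and 6 were crossed by age, and the labels name no shared litter or batch. Only in cortical neurons did same-numbered mice deviate together in every pair (correlations over 0.1), and there the replicate block gave 0 calls in place of 1. In other fits single pairs did so too. For mouse 5 the correlation was 0.464 in deep brain oligodendrocytes and 0.476 in cortical precursor cells. The medians over the control mice were −0.111 and −0.108. The main genotype fits, without a block, leave such pairing out of account. Alternatives were RLE factors, no filter, DESeq2 1.42.0, replicate and age blocks, each library left out, a limit of 5% mitochondrial UMIs, doublets removed and resolution 0.3, plus those named as chosen after seeing the data.

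The fits were tested on simulated data: with 200 genes changed, 62% of 2-fold and 90.0% of 4-fold changes were recovered in deep brain endothelial cells, and 25.0% and 74% in cortical ones. Genes named besides the members were those of the 3 pathway lists that were called, otherwise described by counts, and the 3 genes most like each member, by Pearson correlation of log2(mean CPM + 1) among genes reaching a mean of 10 CPM in a class. Rows that name no mouse gene held 0 to 6.75e-05% of the UMIs of a library and stayed out of the tests. The depth of a class, down to 5 nuclei in a library, limits the precision of its values.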

Additional observations from a re-analysis of the deposited data

Results flagged for a closer look

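In 115 groups of 4 to 6 libraries, 7 groups had 1 library far from the others by Dixon's test. Chance gives about 1 in 20 for normally distributed values, a rate that does not carry over to low counts. A group in which only 1 library has a UMI is always flagged. Edn1 in deep brain mural cells stood at 22.8 CPM in control mouse 5, from 1 UMI, while the other 5 control libraries were at 0. Ednra in deep brain endothelial cells stood at 54.6 CPM in mutant mouse 3, from 13 UMIs, against 0 to 6.80 CPM in the other mutants. Ednrb in the cortical cluster led by Slc47a1 and Bnc2 stood at 36.4 CPM in mutant mouse 6, from 6 UMIs, against 0 in the other mutants. Ednrb in cortical endothelial cells stood at 70.7 CPM in control mouse 5, from 12 UMIs, against 0 to 17.2 CPM in the other controls. Ednrb in deep brain oligodendrocytes stood at 20.1 CPM in mutant mouse 4, from 123 UMIs, against 9.36 to 11.5 CPM in the other mutants. Ece1 in the deep brain cluster led by Slc47a1 and Bnc2 stood at 23.8 CPM in control mouse 5, from 3 UMIs, against 47.1 to 51.7 CPM in the other controls, and Ece1 in cortical astrocytes at 28.3 CPM in control mouse 3, from 9 UMIs, against 65.8 to 82.7 CPM.

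A pair of mutant cortical libraries was left out of the endothelial fit because each held 4 endothelial nuclei. Edn1 stood there at 623 CPM in mutant mouse 2, from 14 UMIs in 1 nucleus, and at 1155 CPM in mutant mouse 3, from 25 UMIs in 3 nuclei. Both values lie above the range of 84.4 to 239 CPM over all 6 control libraries. In control mice 1, 2 and 6 the cortical Edn1 UMIs also lay in 1 endothelial nucleus each.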

How the results depend on the processing

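Edn1 in endothelial cells kept its direction and its call in both regions under every alternative that tested it, with log2 fold changes of 2.11 to 3.51 in the deep brain and 2.66 to 3.09 in the cortex. Without any arterial or venous marker UMI it was not tested. The genotype difference of Ednrb in cortical oligodendrocyte precursor cells passed the threshold with the replicate block (−0.59), the age-matched block (−0.58), no filter (−0.55) and without mutant mouse 4 (−0.66), and not otherwise, and in deep brain precursor cells it passed with no filter only (−0.39). Ece1 in cortical astrocytes passed with the replicate block (−0.66), the age-matched block (−0.65) and without control mouse 3 (−0.72). The regional difference of Ednra in astrocytes lost its call with DESeq2 (−0.69), with the Slco1c1-led cluster alone (−0.58) and without control mouse 2, 3 or 5 (−0.66 to −0.61), and that of Ednrb in astrocytes lost it with the Slco1c1-led cluster alone (0.0092). The cause was not tested.

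Counts of called genes moved by more than 1.5 times as follows. Without a filter, deep brain calls were 157 in endothelial cells, 27 in mural cells, 68 in fibroblasts, 74 in precursor cells and 140 in microglia, cortical calls 344 in astrocytes, 85 in endothelial cells and 35 in precursor cells, the regional fit of endothelial cells gave 8, and the fits of the effect difference between regions gave 51 in astrocytes, 4 in endothelial cells and 3 in precursor cells. DESeq2 gave 22 in mural cells, 10 in fibroblasts, 11 in precursor cells, 491 in oligodendrocytes and 561 in neurons of the deep brain, 64 in endothelial cells, 19 in neurons and 1 in precursor cells of the cortex, 236 between regions in precursor cells and 13 for the effect difference in astrocytes. With the replicate block, 28 genes were called in precursor cells, 27 in microglia and 203 in neurons of the deep brain, and 304 in astrocytes, 10 in endothelial cells, 0 in neurons and 4 in precursor cells of the cortex, and it turned Ednrb in cortical astrocytes to −0.0036 and Ece1 in cortical endothelial cells to −0.0082, both near 0 and uncalled. Same-numbered mice 1 to 4 shared their age, but the labels name no shared litter or batch. In 1 of 12 fits every same-numbered pair deviated together, and in others a part of the pairs did. Without the block by mouse, the effect difference gave 0 in astrocytes and in endothelial cells, the regional fit of precursor cells gave 306, and Ece1 in it was −0.034. With the age-matched block, 18 genes were called in mural cells, 12 in fibroblasts, 17 in precursor cells, and 6, 0 and 6 in endothelial cells, neurons and precursor cells of the cortex. RLE factors gave 5 in mural cells and 0 for both effect differences, removed doublets gave 5 in mural cells and 3 in fibroblasts, a limit of 5% mitochondrial UMIs gave 0 for the effect difference in endothelial cells, and neurons without granule neurons of the cerebellum gave 127. Resolution 0.3 turned Ednrb in cortical neurons to −0.19. With the Slco1c1-led cluster alone, 147 genes were called between regions, 2 for the effect difference, and Ece1 was −0.67. Nuclei without mural marker UMIs gave 6 between regions and 0 for the effect difference, with Ece1 at 0.11 in the deep brain and the effect difference of Edn1 at 2.48 (adjusted p = 0.92), and those without arterial or venous marker UMIs gave 0 in the deep brain and 1 between regions.

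Leaving out 1 library at a time gave 353 to 1053 calls in astrocytes, 30 to 98 in endothelial cells, 1 to 22 in mural cells, 2 to 12 in fibroblasts, 3 to 12 in precursor cells, 111 to 513 in oligodendrocytes, 13 to 25 in microglia and 4 to 220 in neurons of the deep brain. In the cortex the ranges were 97 to 243 in astrocytes, 5 to 40 in endothelial cells, 0 to 1 in neurons and 0 to 3 in precursor cells. Between regions they were 1205 to 1506 in astrocytes, 0 to 1 in endothelial cells and 311 to 457 in precursor cells, and for the effect difference 0 to 17, 0 to 2 and 0 to 1. Over libraries left out, Ednra in astrocytes between regions ranged from −0.93 to −0.61 and Ednrb in cortical precursor cells from −0.66 to −0.52. Uncalled values near 0 changed sign: Ece1 in precursor cells ranged from −0.065 to 0.13 between regions and from −0.047 to 0.15 in the cortex, Ece1 from −0.28 to 0.32 in cortical endothelial cells and from −0.014 to 0.12 in cortical neurons, the effect differences in endothelial cells from −0.45 to 0.20 for Ece1 and from −0.51 to 0.026 for Edn3, Ednra from −0.21 to 0.083 in cortical and from −0.15 to 0.11 in deep brain neurons, and Ednrb from −0.046 to 0.21 in cortical neurons, from −0.067 to 0.072 in cortical astrocytes and from −0.015 to 0.14 for the effect difference in astrocytes. Of the refitted values of the members, 739 kept direction and side of the threshold, 39 changed sign, 6 lost the call and 8 gained it. No alternative with doublets removed was run in the cortex.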
